A study of Mus musculus with 4 samples.

Results

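The genes described here are the nuclear genes for the proteins of the mitochondrial ribosome, taken as every gene whose only platform symbol begins with Mrpl or Mrps followed by a number. The rule found 71 genes among 22180 genes with a symbol, of which 43 carry a large subunit symbol (Mrpl) and 28 a small subunit symbol (Mrps). They were measured in total RNA of mouse fibroblasts, the matrix-producing cells of connective tissue, on 4 Affymetrix Mouse Gene 2.0 ST arrays. The tested fibroblasts came from Zip13KO mice (Zip13-/-, 2 arrays) and the others from wild type mice (WT, 2 arrays). Zip13, also named Slc39a13, is a zinc transporter of the Golgi and nearby vesicles, and the study used its loss to ask how local zinc balance bears on the Golgi and the region around the nucleus. Strain, age, sex, tissue of origin, passage and the design of the allele are not given in the labels. The arrays are labelled biological replicates, but nothing says that they came from separate animals or cultures, so p-values measure the spread between these arrays.

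Mitochondria keep a small genome of their own, which codes for core subunits of the respiratory chain, and they translate its messages on their own ribosomes. The RNA of these ribosomes comes from the mitochondrial genome, whereas all of their proteins are encoded in the nucleus, made in the cytosol and imported. The small subunit binds the message and reads the codons, and the large subunit joins the amino acids and releases the new chain towards the inner membrane. Part of the proteins descend from bacterial ribosomal proteins and the rest exist only in mitochondria.

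The deposited values are intensities, and all levels below are log2 of the intensity. Median intensity over all rows of the array was 96.1 and 95.2 on the Zip13KO arrays, against 96.1 and 94.5 on the WT arrays. Slc39a13 itself read 8.89 and 8.98 on the Zip13KO arrays, against 8.94 and 8.85 on the WT arrays. The 2 groups overlapped, with a difference of 0.04 ± 0.07 (SE, limma adjusted p = 0.82), so the targeted gene did not set the arrays labelled Zip13KO apart from those labelled WT. A whole-transcript signal can miss a deletion of part of a gene, and every direction below rests on the labels. Of 11 fibroblast markers 10 were brighter than the median gene, and their summed intensity was 14414 and 14892 in Zip13KO, against 18502 and 17407 in WT, with 2 higher and 5 lower past the test. Immune markers summed to 753 and 718 in Zip13KO and to 795 and 737 in WT over 7 genes, of which Cd68 was higher and Csf1r and Cd14 were lower past the test. None of the 5 endothelial, 5 epithelial or 2 glial markers passed. Brighter than the median gene were 3 of the 7 immune, 1 of the 5 endothelial, 2 of the 5 epithelial and 1 of the 2 glial markers. The lowest intensity of any row was 21.8, so a signal above 0 does not show that a marker was expressed. The part of these markers in the results below was not tested. In bulk RNA, fewer cells of a type and less RNA per cell cannot be told apart.

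Genes for mitochondrial ribosomal proteins moved both ways and by small amounts. At an adjusted p under 0.05 (limma, over all genes), 7 of the 71 were higher in Zip13KO and 8 were lower, together 21.1% of them. Over all 22180 genes the shares were 17.1% in either direction, 7.00% higher and 10.1% lower, so the members' 9.86% higher and 11.3% lower lay near the background. None changed by 2-fold or more. Their median difference was 0.015, against -0.003 for all genes. Differences ran from -0.63 for Mrpl50 to 0.48 for Mrpl38, with the middle of the distribution between -0.08 and 0.13 (quartiles). The median size of a difference, without regard to sign, was 0.12, against 0.09 for all genes. The count rests on single arrays: fewer members passed in each fit without 1 array, which leaves 1 array in a group. Over all genes the count also fell in most of these fits, so the drop is not particular to the members. All rows of the array then joined the limma fit and its adjustment, with unnamed rows, rows with several symbols and further rows of a gene. In that fit 3 members passed, and 1806 of the 22180 genes, against 3786 in the fit over genes.

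The arrays were also compared without a model. In 49 of the 71 genes (69.0%) the Zip13KO arrays did not overlap the WT arrays, against 51.5% of all genes. In 29 of them (40.8%) both Zip13KO arrays were above both WT arrays, against 24.1% of all genes, and in 20 (28.2%) both were below, against 27.3%. Differences of dim genes are compressed on arrays, and 69 members were brighter than the median row on at least 2 arrays. Among the 13819 genes kept by that filter, 28.8% passed, and 19 of the 69 members did (27.5%). Arrays without overlap were not counted among the kept genes. The shares of 51.5%, 24.1% and 27.3% thus include dim genes and are not matched to the members in brightness.

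**Figure D1:**
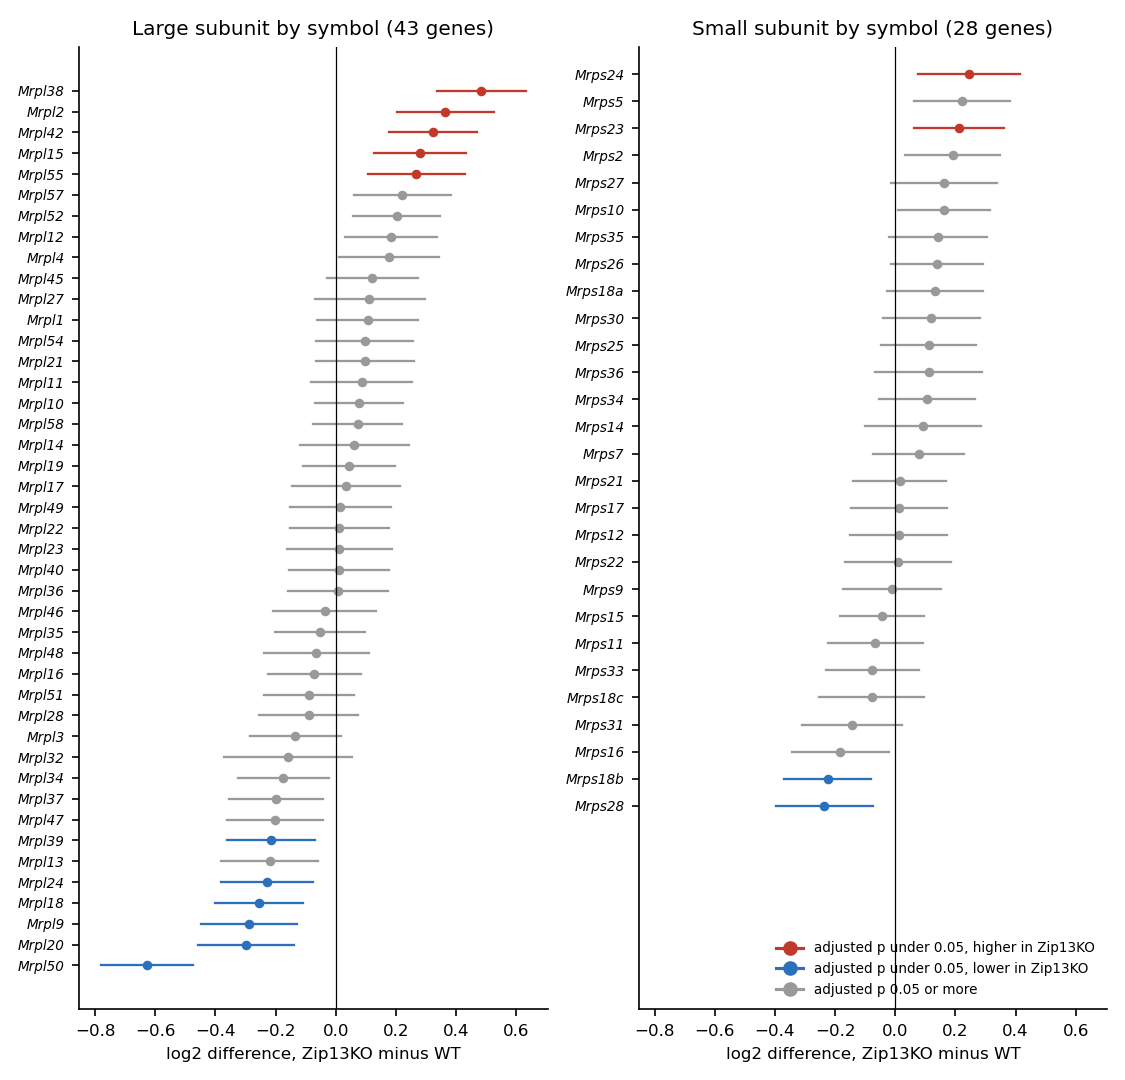
Difference in log2 intensity, Zip13KO minus WT, for the 43 Mrpl genes (left) and 28 Mrps genes (right), ordered by size, with bars for 95% confidence intervals of the limma fit and colours for genes past adjusted p 0.05. Most intervals cross 0, and the ends of the range are Mrpl50 at -0.63 and Mrpl38 at 0.48.

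Among the genes that fell in Zip13KO, Mrpl50 stood furthest from 0. It lies on chromosome 4 and codes for a large subunit protein that exists only in mitochondria. Mrpl50 read 8.95 and 8.85 on the Zip13KO arrays, against 9.52 and 9.55 on the WT arrays. The groups were far apart compared with the gap between replicates, and the difference was -0.63 ± 0.07 (SE, limma adjusted p = 4.82e-06). The Zip13KO signal was thus 0.647 of the WT signal. Mrpl50 passed the test in all 13 alternative fits.

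The other genes that fell changed less. Mrpl20, also on chromosome 4, codes for a relative of the bacterial protein L20, which helps the large subunit RNA to fold. It read 7.98 and 7.97 in Zip13KO, against 8.26 and 8.29 in WT, a difference of -0.30 ± 0.08 (adjusted p = 0.00927). Mrpl9, a relative of bacterial L9 on chromosome 3, read 8.65 and 8.64 in Zip13KO and 8.99 and 8.87 in WT, a difference of -0.29 ± 0.07 (adjusted p = 0.0113). In both genes the replicates of Zip13KO lay almost on each other and below both WT arrays. Mrpl18, on chromosome 17, codes for a protein of the central protuberance, the part of the large subunit that faces the small subunit. It read 9.42 and 9.47 in Zip13KO, against 9.67 and 9.72 in WT, a difference of -0.25 ± 0.07 (adjusted p = 0.0152). Mrpl24, a relative of bacterial L24 on chromosome 3, read 9.01 and 9.07 in Zip13KO and 9.30 and 9.24 in WT, a difference of -0.23 ± 0.07 (adjusted p = 0.0349). Mrpl39 on chromosome 16, a mitochondria-specific protein related to threonyl-tRNA synthetase, read 9.67 and 9.78 in Zip13KO, against 9.95 and 9.93 in WT, a difference of -0.22 ± 0.07 (adjusted p = 0.0412). None of these genes had overlapping groups. Each lost its call without at least 1 array. Without WT replicate 2 the adjusted p was 0.0629 for Mrpl20, 0.12 for Mrpl18, 0.0737 for Mrpl24 and 0.117 for Mrpl39. Without WT replicate 1 it was 0.149 for Mrpl9, 0.226 for Mrpl24 and 0.199 for Mrpl39. Without Zip13KO replicate 1 it was 0.0558 for Mrpl18, 0.151 for Mrpl24 and 0.234 for Mrpl39.

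A pair of small subunit genes fell as well. Mrps28, on chromosome 3, read 7.89 and 7.87 in Zip13KO, against 8.10 and 8.14 in WT, a difference of -0.24 ± 0.08 (adjusted p = 0.04). Mrps18b, on chromosome 17, is one of 3 relatives of bacterial S18 in the genome. It read 9.60 and 9.62 in Zip13KO, against 9.87 and 9.80 in WT, a difference of -0.22 ± 0.07 (adjusted p = 0.0302). Replicates of either gene differed by less than the groups did, and the groups did not overlap. The calls were nevertheless close to the threshold. Mrps28 did not pass without any 1 of the 4 arrays (adjusted p 0.091 to 0.192), and Mrps18b did not pass without Zip13KO replicate 1 (0.0871), WT replicate 1 (0.228) or WT replicate 2 (0.0662). The other S18 relatives, Mrps18a and Mrps18c, differed by 0.13 (adjusted p = 0.306) and -0.08 (adjusted p = 0.66).

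Of the genes that rose, Mrpl38 had the highest difference. It lies on chromosome 11 and codes for a mitochondria-specific protein of the central protuberance. Mrpl38 read 10.07 and 10.12 on the Zip13KO arrays, against 9.67 and 9.56 on the WT arrays. Both Zip13KO arrays were well above both WT arrays, and the difference was 0.48 ± 0.07 (SE, limma adjusted p = 6.4e-05), a 1.40-fold higher signal. Mrpl2, on chromosome 17, codes for the relative of bacterial L2, which sits close to the centre where peptide bonds form. It read 8.47 and 8.54 in Zip13KO, against 8.18 and 8.10 in WT, a difference of 0.36 ± 0.08 (adjusted p = 0.00219). Mrpl42, a mitochondria-specific protein encoded on chromosome 10, read 10.36 and 10.28 in Zip13KO and 9.94 and 10.05 in WT, a difference of 0.32 ± 0.07 (adjusted p = 0.00266). In each of these genes the gap between groups exceeded the gap between replicates. Mrpl38 and Mrpl2 passed in all 13 alternative fits, and Mrpl42 in all but the fit over all rows of the array (adjusted p = 0.0583).

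A further 4 genes rose by smaller amounts. Mrpl15 on chromosome 1, a relative of bacterial L15, read 9.11 and 9.04 in Zip13KO, against 8.78 and 8.81 in WT, a difference of 0.28 ± 0.07 (adjusted p = 0.0108). Mrpl55 on chromosome 11 read 8.66 and 8.73 in Zip13KO, against 8.47 and 8.38 in WT, a difference of 0.27 ± 0.08 (adjusted p = 0.019). Both are large subunit genes whose Zip13KO arrays lay above their WT arrays. Mrps24, the relative of bacterial S3, which lines the entry of the message channel, read 8.68 and 8.64 in Zip13KO, against 8.51 and 8.33 in WT, a difference of 0.24 ± 0.08 (adjusted p = 0.0426). Mrps23, a mitochondria-specific small subunit protein, read 9.32 and 9.27 in Zip13KO and 9.08 and 9.08 in WT, a difference of 0.21 ± 0.07 (adjusted p = 0.0497). Both of these lie on chromosome 11, and their groups did not overlap, although the WT arrays of Mrps24 stood further apart than those of Mrps23. Single arrays decided these calls. Mrpl15 did not pass without Zip13KO replicate 1 (adjusted p = 0.0571) or WT replicate 1 (0.0778), and Mrpl55 not without Zip13KO replicate 2 (0.0883) or WT replicate 2 (0.162). Mrps24 did not pass without Zip13KO replicate 1 (0.117), Zip13KO replicate 2 (0.0503) or WT replicate 2 (0.408), where its difference was 0.16. Mrps23 did not pass without any 1 of the arrays (0.0545 to 0.204).

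**Figure D2:**
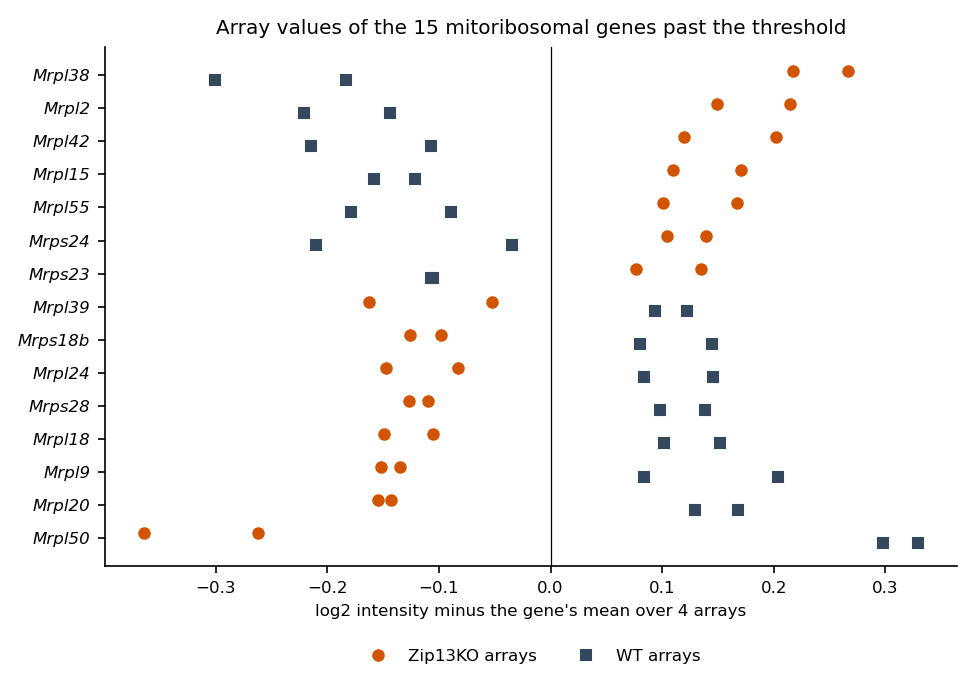
Log2 intensity on each array minus the gene's mean over the 4 arrays (horizontal axis), for the 15 genes past adjusted p 0.05, with circles for Zip13KO arrays and squares for WT arrays. The groups do not overlap in any of the 15, and Mrpl50 and Mrpl38 show the widest gaps, -0.63 and 0.48. The 15 were picked by a test on these same arrays, so the lack of overlap is not separate evidence. Over all genes 51.5% do not overlap.

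Just outside the threshold were Mrpl52 (0.20, adjusted p = 0.0515), Mrps5 (0.22, 0.0543), Mrpl13 (-0.22, 0.0564) and Mrpl57 (0.22, 0.0589). Mrps23 lay just inside it at 0.0497, so the count of called genes depends on steps smaller than the replicate error. With unadjusted limma p under 0.05, 27 of the 71 genes would be counted, and 5746 of all 22180 genes. Mrps5, the relative of bacterial S5 near the decoding site, read 9.37 and 9.51 in Zip13KO, against 9.27 and 9.16 in WT, with no overlap. Mrps5, Mrps26 and Mrps2 share chromosome 2 with Slc39a13, at 633, 720 and 1266 genes from it.

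Some members outside the called genes are known for a defined role in translation, and 8 of them, chosen after their values were seen, are given here. For the stalk that recruits translation factors, Mrpl12, the relative of bacterial L7/L12, read 9.37 and 9.29 in Zip13KO, against 9.18 and 9.12 in WT, a difference of 0.18 ± 0.07 (adjusted p = 0.101). The stalk base genes Mrpl10 and Mrpl11 differed by 0.08 and 0.09 (adjusted p = 0.58 and 0.59). Around the tunnel through which the new chain leaves, Mrpl22 and Mrpl23 both differed by 0.01, and Mrpl45, which faces the inner membrane, by 0.12 (adjusted p = 0.323). Mrps12, the relative of bacterial S12 at the decoding site, read 8.03 and 8.03 in Zip13KO and 8.02 and 8.03 in WT, with a 95% confidence interval of the difference of -0.15 to 0.17. Mrpl58, a release factor relative that frees stalled chains, differed by 0.07 (adjusted p = 0.609). None of these 8 genes passed the test. All 8 differences were above 0, but the choice was made with the values known, so their shared sign does not describe the members. Over all 71 members 44 differences were above 0 and 27 below. Mrpl47, also not called and not among the 8, differed by -0.20 (adjusted p = 0.0852). Called genes with such roles, among them Mrpl2 at 0.36, Mrps24 at 0.24 and Mrpl24 at -0.23, are described above.

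The brightest members by mean signal were Mrpl42, described above, Mrps15 and Mrpl49. Mrps15 differed by -0.05 (adjusted p = 0.768) and Mrpl49 by 0.01 (adjusted p = 0.951). The dimmest were Mrps36, Mrps14 and Mrpl27, with differences of 0.11, 0.09 and 0.11 (adjusted p = 0.483, 0.627 and 0.495). Mrps36 was later found to be a subunit of the 2-oxoglutarate dehydrogenase complex and carries its ribosomal name from earlier work.

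Rows of the array could be compared with each other for 9 genes that had 2 rows. In 7 of them both rows gave the same direction, among them Mrps18b, at -0.22 for the brighter row and -0.14 for the other. Mrps18c differed by -0.08 in the row used and by 0.19 in its dimmer row, and Mrpl36 by 0.01 and -0.01, none past the test. The mean of both rows left Mrps18b short of the threshold at -0.18 (adjusted p = 0.0925). A further 13 rows carried a member's symbol together with another gene's symbol and were left out. Their differences ran from -0.27 to 0.37, and 0 of them passed in the limma fit over all rows.

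The large and small subunits were compared by symbol and by structure. Of the 43 Mrpl genes 5 rose and 6 fell (25.6%), and of the 28 Mrps genes 2 rose and 2 fell (14.3%), against 17.1% of all genes. The Mrpl genes had a median difference of 0.012, and the Mrps genes one of 0.085. Groups of arrays were apart upwards in 15 (34.9%) and downwards in 14 (32.6%) of the Mrpl genes, and upwards in 14 (50%) and downwards in 6 (21.4%) of the Mrps genes. Over all genes, dim ones included, these shares were 24.1% upwards and 27.3% downwards. Per array, the median of centred Mrpl levels minus that of Mrps levels was -0.02 and -0.06 in Zip13KO, against 0.02 and 0.03 in WT. The Zip13KO arrays were thus both below the WT arrays, and these per-array values had a replicate spread of 0.019 (SD). The difference between the median differences of the subunits, a separate measure to which that spread does not belong, was -0.073. With 2 arrays a group it was not given a p. It was -0.020 without Zip13KO replicate 2 and -0.048 without WT replicate 2.

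Names and structure do not match fully, and the size of this difference depended on which was used. In the structure of the mammalian mitochondrial ribosome the products of Mrps30 and Mrps18a belong to the large subunit, and Mrps36 is not part of it. With these genes moved or left out, the 45 large subunit genes and the 25 small subunit genes had the same median difference of 0.015. The difference between these medians was then 0.000. Per array, large minus small was -0.020 and -0.024 in Zip13KO, against 0.012 and 0.021 in WT, so both Zip13KO arrays were still below both WT arrays. Counts stayed at 5 higher and 6 lower for the large subunit, and 2 higher and 2 lower for the small subunit. Among proteins with a bacterial relative, 4 of 45 genes rose and 6 fell (22.2%), with a median of 0.012. Among mitochondria-specific proteins, 3 of 25 rose and 2 fell (20%), with a median of 0.097. Both shares lay near the 17.1% of all genes that passed.

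**Figure D3:**
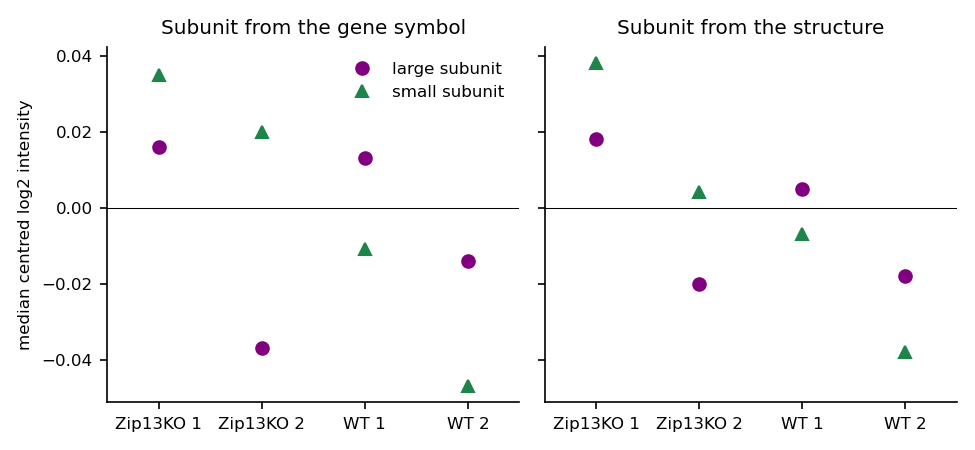
Median of centred log2 intensity per array for large and small subunit genes, by symbol and by structure, with Zip13KO arrays left of WT arrays. By symbol, large minus small was -0.02 and -0.06 in Zip13KO and 0.02 and 0.03 in WT, and by structure -0.02 and -0.02 in Zip13KO and 0.01 and 0.02 in WT.

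Genes that build and serve the ribosome were read from lists chosen by function, and their counts stand beside the 7.00% of all genes that rose and the 10.1% that fell, 17.1% in all. Dim genes are part of that background. After the filter on dim rows 28.8% of genes passed, and these lists were not counted there. Of 6 symbols listed for mitochondrial ribosome proteins named otherwise, 3 were measured. Ict1, also on that list, is an older symbol of Mrpl58, which is counted among the members. Ptcd3, a small subunit protein, rose by 0.25 ± 0.08 (adjusted p = 0.0295), whereas Dap3 and Gadd45gip1 differed by -0.05 and -0.04 (adjusted p = 0.796 and 0.811). Ptcd3 did not pass without Zip13KO replicate 1 (0.217) or WT replicate 2 (0.26). Of 24 assembly factors 4 rose and 1 fell (20.8%), with a median of 0.10. Mettl17, a factor of small subunit assembly, rose by 0.38 ± 0.08 (adjusted p = 0.00281), with both Zip13KO arrays above both WT arrays. The RNA methyltransferase Mrm3 rose by 0.30 (adjusted p = 0.0108), and the GTPases Eral1 and Noa1 by 0.25 each (0.0384 and 0.0249). Gtpbp10, a GTPase of large subunit assembly, fell by 0.23 (adjusted p = 0.0499) and did not pass without Zip13KO replicate 1 (0.249), WT replicate 1 (0.138) or WT replicate 2 (0.181). Without WT replicate 2 the adjusted p was 0.0709 for Mrm3, 0.433 for Eral1 and 0.259 for Noa1, and without Zip13KO replicate 2 it was 0.0772, 0.0748 and 0.0759.

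The list of 14 measured translation factors also holds helpers such as Oxa1l and Lrpprc. Of its genes 4 rose and 1 fell (35.7%, against 17.1% of all genes), with a median of 0.12. Oxa1l and Lrpprc are among the 4 that rose. Guf1, a GTPase that acts on the translating mitochondrial ribosome, read 8.16 and 8.16 in Zip13KO, against 7.65 and 7.67 in WT. Its replicates agreed closely, and the difference was 0.50 ± 0.08 (adjusted p = 0.00011). Oxa1l, which inserts new chains into the inner membrane, read 10.64 and 10.73 in Zip13KO and 10.34 and 10.23 in WT, a difference of 0.40 ± 0.07 (adjusted p = 0.000328). The elongation factor gene Tufm rose by 0.32 (adjusted p = 0.00272), but its rows averaged to 0.16 (0.217). Lrpprc, which holds mitochondrial messages stable, rose by 0.28 (adjusted p = 0.0166) and did not pass without Zip13KO replicate 2 (0.182) or WT replicate 2 (0.0663). Mrrf, the factor that recycles the ribosome, fell by 0.29 (adjusted p = 0.0072).

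Aminoacyl-tRNA synthetase genes were listed together with the amidotransferase subunit genes Gatb, Gatc and Qrsl1. Of these 19 genes 3 were higher and 3 lower (31.6%, against 17.1% of all genes), with a median of 0.03. Without the amidotransferase genes the calls were not even, as only Iars2 was higher and Rars2, Yars2 and Wars2 were lower. Rars2, the arginine enzyme, read 7.72 and 7.69 in Zip13KO, against 8.30 and 8.08 in WT, a difference of -0.48 ± 0.09 (adjusted p = 0.000457). Yars2, the tyrosine enzyme, fell by 0.36 (adjusted p = 0.00132) and Wars2, the tryptophan enzyme, by 0.29 (0.0135). Iars2, the isoleucine enzyme, rose by 0.35 (adjusted p = 0.00918), and the amidotransferase subunit genes Gatc and Gatb by 0.31 (0.00535) and 0.26 (0.0283). Iars2 did not pass without Zip13KO replicate 2 (0.0746) or WT replicate 2 (0.121), Gatc not without WT replicate 1 (0.0734), and Gatb not without any 1 of the arrays (0.0618 to 0.108). Wars2 did not pass without Zip13KO replicate 1 (0.0832), WT replicate 1 (0.0523) or WT replicate 2 (0.0577). Of 17 transcription and RNA processing genes 3 rose and 0 fell past the limma threshold (17.6%), with a median of 0.09. They were Grsf1, which organises mitochondrial RNA granules (0.36, adjusted p = 0.00173), Pnpt1, an RNA-degrading enzyme (0.31, 0.00737), and Polrmt, the mitochondrial RNA polymerase (0.30, 0.00775). Pnpt1 did not pass without Zip13KO replicate 2 (0.0832).

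Of 11 regulators of nuclear genes for mitochondria 1 rose and 1 fell (18.2%). Gabpa, the DNA-binding subunit of an ETS factor, read 9.61 and 9.73 in Zip13KO, against 9.99 and 10.04 in WT, a difference of -0.35 ± 0.07 (adjusted p = 0.00167). Ppargc1b, a coactivator, rose by 0.29 (adjusted p = 0.0203) and did not pass without Zip13KO replicate 2 (0.064) or WT replicate 2 (0.251). Nrf1 and Yy1 differed by -0.11 (adjusted p = 0.411) and -0.02 (0.905). For scale, 6 of 79 respiratory chain genes rose and 7 fell (16.5%, median 0.015), and 1 of 57 cytosolic ribosomal protein genes rose and 4 fell (8.77%, median -0.07). These groups were measured on the same arrays and were set beside the mitochondrial ribosomal proteins as counts only.

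**Figure D4:**
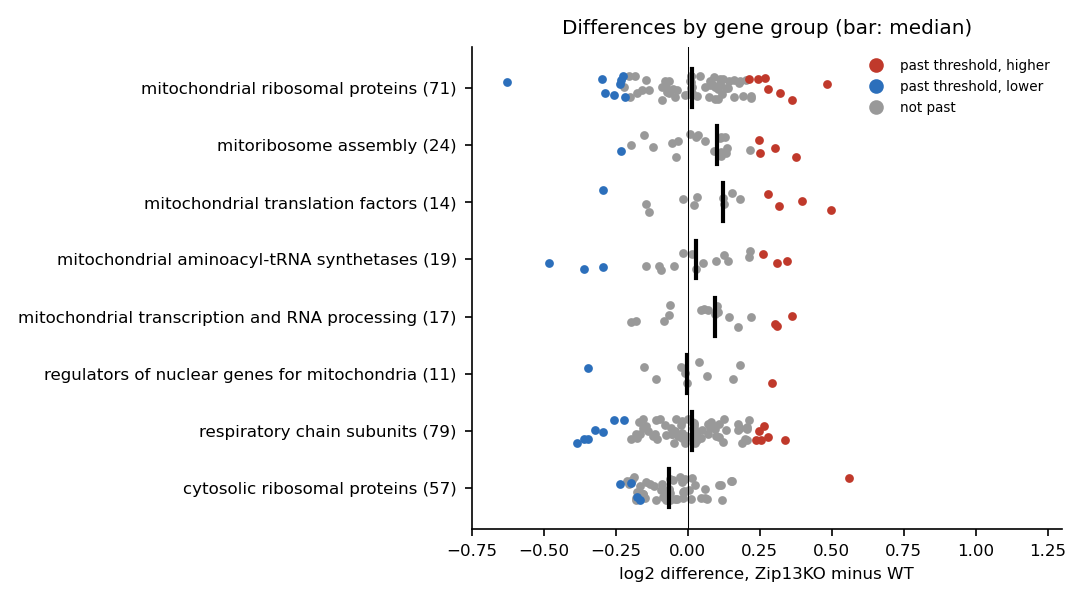
Difference in log2 intensity, Zip13KO minus WT, for each gene of the mitochondrial ribosomal proteins and the other lists, with a bar at the median of each list and colours for genes past adjusted p 0.05. Genes of every list lie on both sides of 0.

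Promoters of the members were read from RefSeq (GRCm38.p6), as 250 bases before to 50 bases after each start, and 62 of the 71 genes had an entry. Motifs of 3 regulator families known for nuclear genes of mitochondria were counted on either strand. The NRF1 motif was in 17.7% of the members, against 7.24% of the 16990 measured genes with a promoter in the table and 5.19% of all 27025 genes in it. The ETS motif CCGGAAG, which GABPA can bind, was in 37.1% of the members, 12.7% of measured genes and 9.93% of all genes. The YY1 motif AAGATGGCG was in 12.9% of the members, 2.17% of measured genes and 1.64% of all genes. At least 1 of them was in 58.1% of the members, 19.8% of measured genes, 15.1% of all genes, 51.6% of respiratory chain genes and 56.8% of cytosolic ribosomal protein genes. Member promoters also held more CG dinucleotides, with a median of 21, against 13 in measured genes and 7 in all genes. Such motifs were not limited to genes that changed, with 29 of 50 members that did not pass holding one, 4 of 7 that fell and 3 of 5 that rose. A match is a run of letters and was not tested as a binding site.

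The NRF1 letters were in the promoters of 2 members that fell, Mrpl9 and Mrpl39, shown to let the match be seen in place. Each sequence is the stretch of 150 bases before the start, 5′ to 3′ on the gene's strand, with the NRF1 match in capitals. Mrpl9 is at chr3:94443186-94443335 (plus strand) and Mrpl39 at chr16:84735245-84735394 (minus strand).
Mrpl9: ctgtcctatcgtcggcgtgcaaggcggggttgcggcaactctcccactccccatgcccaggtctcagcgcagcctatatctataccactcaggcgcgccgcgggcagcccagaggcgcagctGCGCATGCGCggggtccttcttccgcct
Mrpl39: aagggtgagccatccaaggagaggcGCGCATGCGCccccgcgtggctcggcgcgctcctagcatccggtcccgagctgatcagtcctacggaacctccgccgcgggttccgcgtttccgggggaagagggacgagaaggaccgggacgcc
The matches read the same on both strands, and they lie 28 bases before the Mrpl9 start and 125 bases before the Mrpl39 start.

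Many members share their upstream stretch with a neighbour on the other strand. In 22 of the 62 (35.5%) a promoter overlapped that of a gene running the opposite way, against 13.3% of measured genes and 11.9% of all genes. Partners of 22 members were measured, and of these 22 partners 3 were higher and 2 lower past the limma threshold. Over all genes 7.00% were higher and 10.1% lower, 17.1% in all. Mrpl46 and Mrps11 are each other's partner, with starts 42 bases apart, and differed by -0.04 and -0.07 (adjusted p = 0.861 and 0.679). Mrps12 is paired with Sars2, the mitochondrial serine enzyme, which differed by -0.01 (adjusted p = 0.951).

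Of the 15 called genes, 4 had a measured partner. Zfp189, a zinc finger gene whose start is 93 bases from that of Mrpl50, read 7.03 and 7.15 in Zip13KO, against 7.29 and 7.39 in WT, a difference of -0.25 ± 0.08 (adjusted p = 0.0472). Zfp189 did not overlap between groups, and it did not pass without Zip13KO replicate 1 (0.269), WT replicate 1 (0.0578) or WT replicate 2 (0.258). Tcp1, a subunit of the cytosolic chaperonin, starts 238 bases from Mrpl18 and read 11.58 and 11.64 in Zip13KO, against 11.80 and 11.81 in WT, a difference of -0.19 ± 0.06 (adjusted p = 0.0291). The mean of the rows of Tcp1 gave 0.01 (adjusted p = 0.97), and the call was lost without Zip13KO replicate 1 (0.093), WT replicate 1 (0.138) or WT replicate 2 (0.155). By contrast Klc4, a kinesin light chain gene 141 bases from Mrpl2, differed by -0.08 (adjusted p = 0.658) while Mrpl2 rose. The noncoding gene 2610507I01Rik, 55 bases from Mrpl55, differed by 0.12 (adjusted p = 0.408).

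The stretches between the starts of Mrpl50 and Zfp189 and of Mrpl2 and Klc4 are shown because these members passed in all 13 alternative fits, one with a partner that changed the same way and one without. They are written 5′ to 3′ on the member's strand and end at its start. Mrpl50 is at chr4:49521084-49521175 (minus strand), and Mrpl2 at chr17:46646081-46646220 (plus strand). Neither holds any of the 3 motifs, so both are in lower case throughout.
Mrpl50: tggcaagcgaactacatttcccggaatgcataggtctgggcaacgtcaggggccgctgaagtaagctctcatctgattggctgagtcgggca
Mrpl2: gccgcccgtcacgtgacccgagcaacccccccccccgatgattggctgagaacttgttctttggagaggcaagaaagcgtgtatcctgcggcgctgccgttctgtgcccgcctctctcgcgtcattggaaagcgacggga
The lack of a match covers these letters only.

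Among members that did not pass, 3 had a partner that rose. Ska3, a spindle gene beside Mrpl57, read 8.95 and 9.01 in Zip13KO, against 8.57 and 8.59 in WT, a difference of 0.40 ± 0.07 (adjusted p = 0.000656), while Mrpl57 differed by 0.22 (adjusted p = 0.0589). Helq, a DNA helicase gene beside Mrps18c, rose by 0.25 (adjusted p = 0.0329), and Tmem63b, a membrane channel gene beside Mrpl14, rose by 0.24 (adjusted p = 0.0355). Their members Mrps18c and Mrpl14 differed by -0.08 and 0.06 (adjusted p = 0.66 and 0.751). Helq did not pass without Zip13KO replicate 1 (0.17), WT replicate 1 (0.0633) or WT replicate 2 (0.189), and Tmem63b not without Zip13KO replicate 1 (0.193) or WT replicate 2 (0.274).

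**Figure D5:**
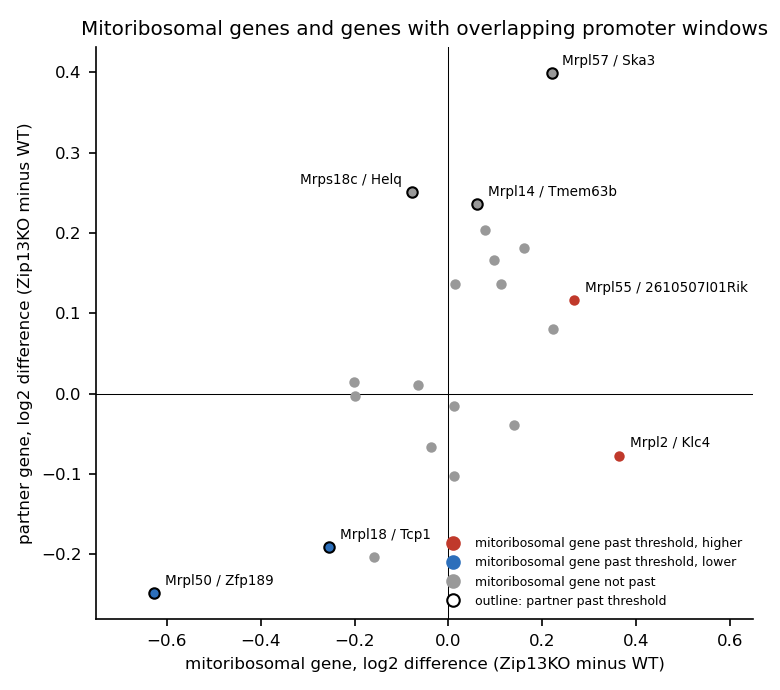
Difference in log2 intensity, Zip13KO minus WT, of each member (horizontal axis) and of the gene that starts beside it on the other strand (vertical axis), for 22 members, with Mrpl46 and Mrps11 drawn as 1 point. Pairs with a gene past the threshold are named, and in the 2 pairs with both genes past it, Mrpl50 with Zfp189 and Mrpl18 with Tcp1, both genes were lower.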

How the data were processed

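Per the labels, the authors labelled total RNA of fibroblasts with biotin and read it on Mouse Gene 2.0 ST arrays. The deposited file holds intensity that was not in log units, made by the authors with Affymetrix Expression Console and RMA, per the submitters' processing notes, without versions. RMA normalizes between arrays, which hides a shift common to most genes, and it compresses differences of dim genes. The deposited intensity was turned into log2 values with no pseudocount. The number of arrays limits the precision.

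Of 41345 rows, 23521 had 1 gene symbol in the platform annotation, 1814 several and 16010 none here, and 23328 of the first matched RefSeq (GRCm38.p6) by gene ID, with 0 symbols changed. The brightest row by mean log2 stood for a gene. Groups came from the genotype in the labels. All 22180 genes entered 1 fit with limma 3.58.1 under R 4.3.3 (lmFit, eBayes with a trend, two-sided, 2 residual and 15.1 prior degrees of freedom) and Benjamini-Hochberg adjustment, at adjusted p under 0.05, and the fit was tested on simulated data. Every adjusted p in the text is limma's, and ± is its standard error. Tables, promoter counts and plots were made with Python 3.11.15, pandas 2.3.3 and matplotlib 3.10.9.

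The members and lists were chosen with earlier results of these data known. The rule for naming genes took members past the threshold (up to 12 a direction), the 3 brightest and 3 dimmest, members whose rows differ in direction, members whose call depends on 1 array, up to 4 genes past the threshold of each other list or else its smallest p, and Slc39a13. Other members, partner genes, and Gtpbp10, Lrpprc, Wars2, Gatb, Dap3, Gadd45gip1, Nrf1 and Yy1 were named after their values were seen. The labels do not say whether replicate numbers pair the arrays, and the fit used no pairing. Deviations of arrays with the same number correlated at -0.158 over genes, which cannot settle it. Alternatives were a replicate block, a filter on dim rows, quantile normalization, median centring, eBayes without trend or with robust variance, averaged rows, all rows, leaving out each array, and subunits by structure.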

Additional observations from a re-analysis of the deposited data

How the results depend on the processing

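Mrpl50, Mrpl38 and Mrpl2 passed in all 13 alternatives, and the other 12 called members failed in at least 1, with their direction kept in each. With all rows in the fit, limma called 1806 genes against 3786, and 2 members higher and 1 lower (large subunit 2 and 1, small subunit 0 and 0). In the fit over genes, 8 of the 28 small and 19 of the 43 large subunit genes had an unadjusted limma p under 0.05. So did 5746 of all 22180 genes. Quantile normalization called 14 members higher (9 large, 5 small subunit), against 7. In either direction it called 22 members, against 15, and 4161 genes over all, against 3786. With the replicate block, 3 members were lower (3 large, 0 small) against 8, and small subunit genes higher numbered 0. That block called 3364 genes in all. The crossed block (Zip13KO 1 with WT 2), chosen after seeing the data, called 14 members higher (9 large, 5 small) and 13 lower (10 large). Over all genes it called 5208. Small subunit genes higher numbered 1 with median centring and 0 without trend, and those lower numbered 1 without trend and 1 with the mean of rows. Leaving out 1 array gave 4 to 5 members higher and 2 to 8 lower, 4 large subunit genes higher each time and 2 to 7 lower, and 0 to 1 small subunit genes higher and 0 to 1 lower, and 2921 to 3808 genes in all. The subunit difference of -0.073 was -0.034 after the filter on dim genes, 0.000 by structure and -0.084 to -0.020 without 1 array. Tcp1 turned to 0.009 with the mean of its rows. The causes of these shifts were not tested. All 71 members are protein coding, so leaving out pseudogenes changed nothing. With 2 arrays a group, small differences lie within the array error.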
